A study of Mus musculus with 2 samples.

Results

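The ion channel genes described here are the voltage-gated calcium, sodium and potassium channels, the other potassium channels, the transient receptor potential (TRP) channels of the C, M and V subfamilies, the CLC chloride channels and exchangers, and the Piezo channels. Members were chosen by gene symbol in the platform annotation (symbols that begin with Cacn, Kcn, Clcn or Piezo, with Scn, a number and a or b, or with Trpc, Trpm or Trpv and a number; 1 symbol was left out). The choice gave 205 probes for 134 genes, of 16593 genes named on the array. It takes in the auxiliary subunits that share a channel's symbol, and also Trpc4ap and Kcnrg, which are named after channels but do not form them. Expression was measured on single-colour Illumina bead arrays in fibroblasts labelled EMF+AuNPs, which were kept on gold nanoparticles and exposed to an electromagnetic field, and in control fibroblasts. The labels give no strain, age, passage, duration or field strength for either. Each condition has 1 array, and no array of gold nanoparticles alone or of the field alone was analysed here, so no value below has a replicate error and no test between conditions was possible. The series title sets the experiment in work on field-driven conversion of cells to dopamine neurons.

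Ion channels are membrane proteins that let ions move down their electrochemical gradient. Voltage-gated calcium, sodium and potassium channels open on depolarisation and shape the action potential of excitable cells. Fibroblasts are not excitable in that sense. Their resting potential is set mainly by potassium channels that do not need depolarisation, and calcium enters them through store-operated, TRP and mechanically gated channels. CLC proteins carry chloride at the plasma membrane or exchange it for protons in endosomes and lysosomes.

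Intensities in the text are the deposited values, linear and not normalized between arrays. The median over all probes was 162 with EMF and AuNPs and 165 in control, and 46.6% and 46.7% of probes were detected, which means a detection p under 0.01 against the negative-control beads. The lowest detected intensity was 181 with EMF and AuNPs and 187 in control. Differences are log2 values after background correction and normalization, EMF and AuNPs minus control. The robust SD quoted beside some of them is the spread of the differences of all detected genes of like brightness. Real change and noise both enter it, and it is no replicate error.

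Promoter sequences are shown for the members at least 1.5-fold higher or lower whose RefSeq window sits at the outermost annotated start of the gene, to show how unlike these starts are. They were Kcnj15, which had the largest difference of all members, and Kcnk5. Each is 300 bases long, from 250 bases before the transcription start to 50 after it, in GRCm38.p6. Capitals mark matches to the 6 motifs listed later. The Kcnj15 window lies at chr16:95257308-95257607 on the plus strand. The Kcnk5 window lies at chr14:20181733-20182032 on the minus strand.
Kcnj15: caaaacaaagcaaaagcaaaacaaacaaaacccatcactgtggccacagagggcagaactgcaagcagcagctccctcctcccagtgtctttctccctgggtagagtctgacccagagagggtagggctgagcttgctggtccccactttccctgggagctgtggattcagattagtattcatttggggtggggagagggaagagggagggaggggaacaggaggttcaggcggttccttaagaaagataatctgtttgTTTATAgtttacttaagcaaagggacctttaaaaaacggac
Kcnk5: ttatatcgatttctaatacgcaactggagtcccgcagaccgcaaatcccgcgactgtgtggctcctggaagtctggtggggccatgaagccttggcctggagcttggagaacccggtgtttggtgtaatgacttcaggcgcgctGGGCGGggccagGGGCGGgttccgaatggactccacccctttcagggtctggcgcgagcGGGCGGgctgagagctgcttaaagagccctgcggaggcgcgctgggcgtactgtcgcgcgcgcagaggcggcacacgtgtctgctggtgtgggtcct
The Kcnj15 window holds 49.7% G and C and 2 CpG dinucleotides, and the Kcnk5 window 63.7% and 26. The arrays measured RNA and say nothing of which start is used in these cells.

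Most channel genes gave no signal above background in either culture. Of the 134 genes, 31 (23.1%) had at least 1 probe detected on at least 1 array, and 103 had none. The background is 52.1% of all genes named on the array. By probe, 39 of 205 (19.0%) were detected, against 48.8% of all named probes. Pore-forming genes were detected in 21 of 101 cases (20.8%) and auxiliary subunits in 9 of 31 (29.0%). Of the 31 genes, 28 were detected on both arrays, 1 (Trpm4) with EMF and AuNPs alone and 2 (Kcnj2 and Trpv4) in control alone. At a looser limit, a detection p under 0.05, 45 channel genes and 57 channel probes were detected, and 9587 of all genes.

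**Figure D1:**
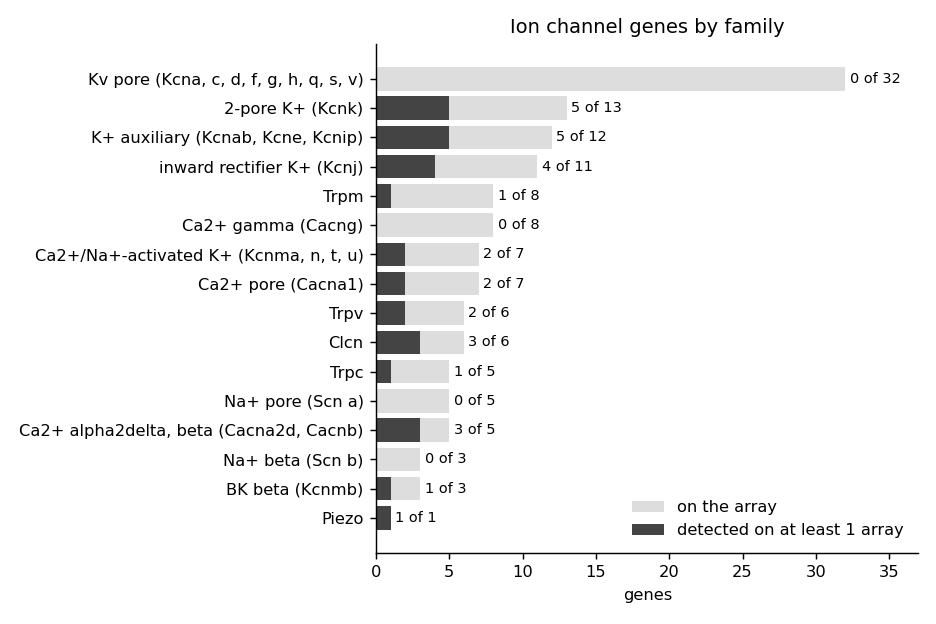
Number of channel genes per family on the array (light bars, in genes) and detected on at least 1 array (dark bars). The voltage-gated potassium pores had 0 of 32 detected and the 2-pore-domain potassium channels 5 of 13; Trpc4ap and Kcnrg are left out.

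The families with no detected gene were the voltage-gated potassium pores, both kinds of sodium channel subunit and the calcium channel gamma family. None of 32 voltage-gated potassium pore genes was detected (Kcna1 to Kcna7 and Kcna10, Kcnc1 and Kcnc4, Kcnd1 to Kcnd3, Kcnf1, Kcng1, Kcng3 and Kcng4, Kcnh1 to Kcnh7, Kcnq1, Kcnq3 and Kcnq5, Kcns1 to Kcns3, Kcnv1 and Kcnv2). Their highest intensity was 176 with EMF and AuNPs and 173 in control, on different probes. None of 5 sodium channel alpha subunit genes (Scn1a, Scn7a, Scn8a, Scn10a and Scn11a) was detected, nor any of 3 beta subunit genes (Scn2b, Scn3b and Scn4b). Scn8a, a sodium channel of neurons, read 129 with EMF and AuNPs and 140 in control. None of the 8 Cacng genes (Cacng1 to Cacng8), which encode gamma subunits and regulators of glutamate receptors, was detected. An undetected probe has only an upper bound, so a transcript below the reach of these probes would not be seen.

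Undetected members elsewhere were Cacna1a to Cacna1d and Cacna1f, Cacnb1 and Cacnb2, and, among potassium channel genes, Kcnk3, Kcnk4, Kcnk7, Kcnk9, Kcnk10, Kcnk12, Kcnk15 and Kcnk18, Kcnj1, Kcnj3, Kcnj5, Kcnj9, Kcnj12, Kcnj14 and Kcnj16, Kcnma1, Kcnn2, Kcnn3, Kcnt1 and Kcnu1. The auxiliary genes Kcnab3, Kcne1 to Kcne3, Kcnip1, Kcnip2, Kcnip4, Kcnmb1 and Kcnmb2 were not detected either. The same held for Trpc1, Trpc4, Trpc5 and Trpc7, for Trpm1 to Trpm3 and Trpm5 to Trpm8, for Trpv1, Trpv3, Trpv5 and Trpv6, for Clcn1, Clcn5 and Clcn6, and for Kcnrg. Some of these are widely transcribed in other tissues. Trpm7, a channel joined to a kinase, read 128 with EMF and AuNPs and 113 in control. Kcnma1, the pore of the large-conductance BK channel, read 134 and 130 in the same order. Over the 166 undetected channel probes the median intensity was 115 with EMF and AuNPs and 114 in control, and over all undetected probes of the array it was 114 on both. Just outside the detection limit lay Kcns1, a silent subunit of voltage-gated potassium channels, with a detection p of 0.0150 with EMF and AuNPs and 0.0226 in control. Just inside it lay Kcnj2, with 0.0263 and 0.00877.

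Among the 31 detected channel genes, 2 exceeded control by 2-fold or more with EMF and AuNPs (background 0.52% of detected genes) and 0 lay 2-fold or more below it (0.485%). At a limit of 1.5-fold, 5 were higher (3.34%) and 1 lower (2.91%). The 5 were Kcnj15, Kcnk1, Kcnn4, Kcnk5 and Clcn3, of which the first 4 are potassium channel genes, and the 1 was Piezo2. Dim genes pass these limits more often, and most members are dim. Among the dimmest 1 in 3 of all detected genes, 6.87% were at least 1.5-fold higher and 4.79% at least 1.5-fold lower. Of the 18 members in that class, 4 were higher and 0 lower by that limit. By the 2-fold limit, 0.936% of the genes of that class were higher and 0.971% lower, and 2 and 0 of its 18 members. All 6 genes past 1.5-fold encode pores or exchangers, as do 21 of the 31 detected members. None of the 9 detected auxiliary subunits passed that limit, a count near the background of 3.34% higher and 2.91% lower. Of the 28 members measured on both arrays, 14 had a difference above 0 and 14 below. Among all 8199 genes detected on both arrays, 4578 lay above 0 and 3607 below. The median was 0.03 for the 28 members and for the 8199 genes. The robust SD of the 28 members was 0.31, against 0.23 for the 8199 genes. These 2 values are not matched for brightness. Detected genes as bright as Kcnj15, a dim member, had a robust SD of 0.37. By the spread of genes of like brightness, 17 of the 28 differed by less than 1 robust SD and 7 by more than 2 (the 6 genes above and Kcnab2). The share of all detected genes past these limits was not computed, so these counts have no background to be read against.

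**Figure D2:**
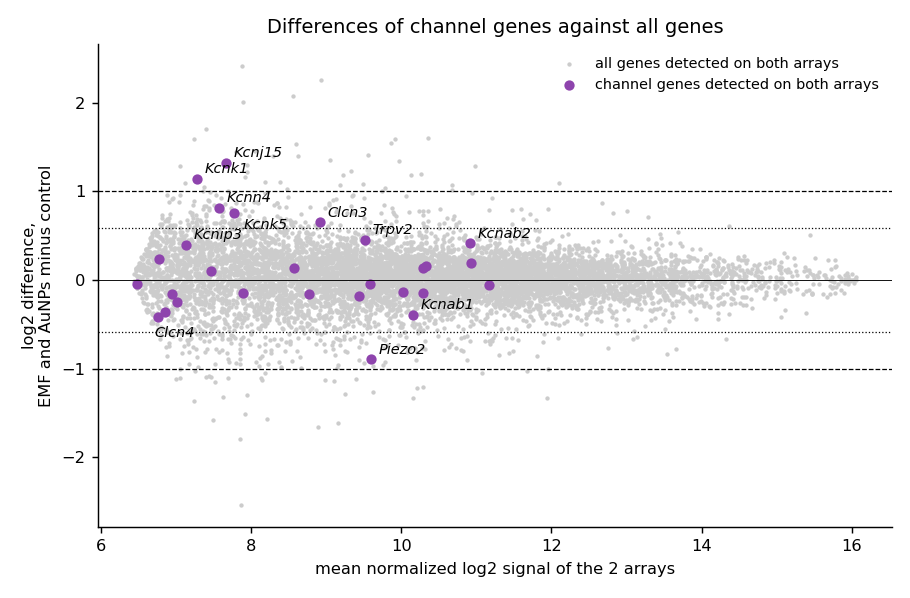
Log2 difference (EMF and AuNPs minus control, vertical axis) against the mean normalized log2 signal of the 2 arrays (horizontal axis). Grey points are the 8199 genes detected on both arrays and purple points the 28 channel genes among them; dashed lines mark 2-fold and dotted lines 1.5-fold. Kcnj15 and Kcnk1 lie above 2-fold at the dim end, and Piezo2 lies below the lower dotted line at -0.90.

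Kcnj15 had the largest difference of the 31 genes. It encodes the inward rectifier Kir4.2, a potassium channel known in human corneal epithelial cells for a part in migration along weak electric fields. Probe ILMN_3125966 read 407 with EMF and AuNPs and 234 in control. It was detected on both arrays and stood 2.50-fold higher (log2 difference 1.32), at 3.60 times the robust SD of 0.37. The other 2 probes of Kcnj15 were not detected on either array, with 104 and 106 with EMF and AuNPs and 82.8 and 105 in control, so the difference rests on 1 probe. Without background correction it was 0.88, under 2-fold.

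The other inward rectifier genes lay close to the detection limit. Kcnj8 encodes Kir6.1, a pore of ATP-sensitive potassium channels, and read 212 with EMF and AuNPs and 247 in control (-0.25). Kcnj4, which encodes Kir2.3, read 183 and 193 in the same order (-0.05). Kcnj2 encodes Kir2.1, a channel of the resting potential in muscle and macrophages, and read 166 with EMF and AuNPs, where it was not detected, and 188 in control. Its control signal was at the lowest detected level, so no fold is given. The differences of Kcnj8 and Kcnj4 were under 1 robust SD of their brightness.

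Among the 2-pore-domain channels, which carry background potassium current, Kcnk1 and Kcnk5 were higher. Kcnk1 encodes TWIK-1, a weakly rectifying leak channel. Its probe read 318 with EMF and AuNPs and 208 in control, a 2.20-fold higher level (1.14, robust SD 0.38). Without background correction the difference was 0.69. Kcnk5 encodes TASK-2, a channel that responds to external pH and cell volume. Its detected probe read 372 with EMF and AuNPs and 276 in control, 1.69-fold higher (0.76, robust SD 0.37), and 0.52 without background correction, under 1.5-fold. The other 2 Kcnk5 probes were not detected, at 140 and 163 with EMF and AuNPs and 132 and 141 in control.

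The remaining 3 detected members of this family were bright and nearly level. Kcnk6, which encodes TWIK-2, read 2160 with EMF and AuNPs and 1950 in control on its brightest probe (0.19) and 649 and 549 on a second (0.40). Kcnk13, the channel THIK-1 known from microglia, read 1058 with EMF and AuNPs and 1215 in control (-0.14). Kcnk2, the mechanically sensitive channel TREK-1, read 727 with EMF and AuNPs and 858 in control (-0.18). Each brightest-probe difference was within 1 robust SD of its brightness.

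Kcnn4 was the calcium-activated potassium channel gene past 1.5-fold. It encodes KCa3.1, the intermediate-conductance channel of lymphocytes, macrophages and proliferating fibroblasts. Its probe read 340 with EMF and AuNPs and 250 in control, 1.76-fold higher (0.82, robust SD 0.37), and 0.54 without background correction, under 1.5-fold. Kcnn1, which encodes the small-conductance channel SK1, read 211 with EMF and AuNPs and 235 in control (-0.16). Kcnmb4, a beta subunit of the BK channel, read 482 and 476 on 1 probe (0.13) and 245 and 285 on another (-0.19), with EMF and AuNPs first in both. Its probes thus differ in sign, both by less than 1 robust SD.

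**Figure D3:**
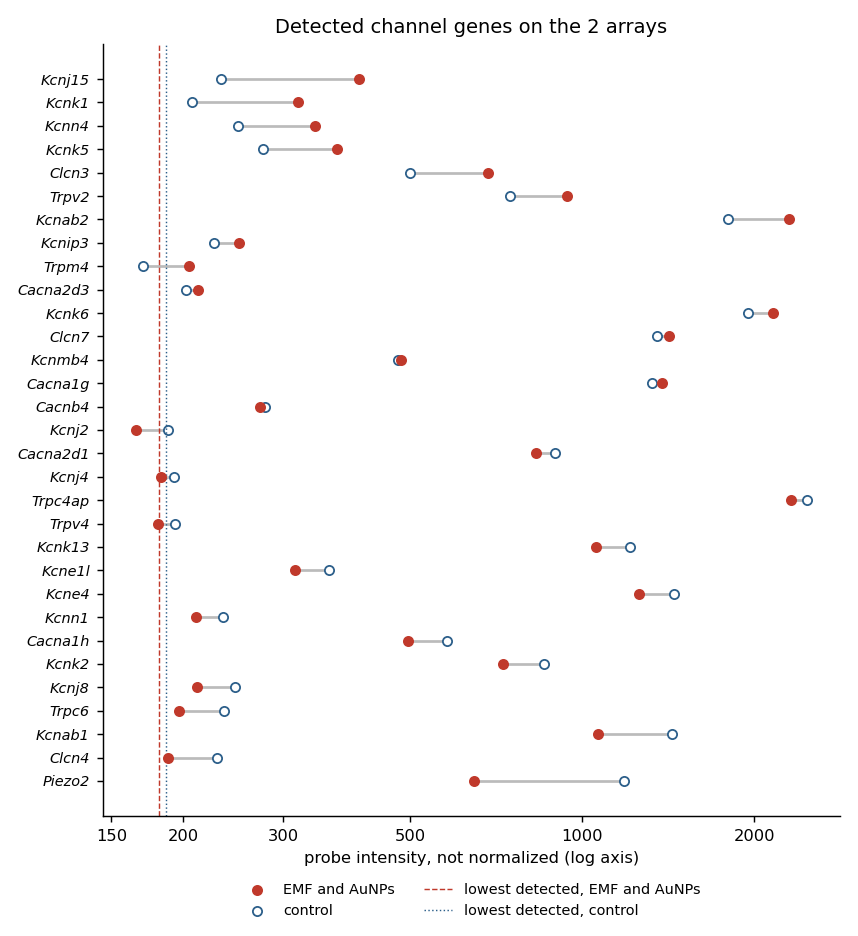
Deposited intensity (log axis, not normalized) of the probe that stands for each of the 31 detected channel genes, with EMF and AuNPs (filled red) and in control (open blue), ordered by log2 difference. Vertical lines mark the lowest detected intensity of each array, and Kcnj15 and Kcnk1 in control lie near them at 234 and 208.

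Auxiliary subunits of voltage-gated potassium channels were detected although no such pore was. The beta subunits, which bind the inner face of Kv1 channels and resemble oxidoreductases, went in opposite directions. Kcnab2 read 2301 with EMF and AuNPs and 1798 in control (0.41, at 2.12 times its robust SD). Kcnab1 read 1066 with EMF and AuNPs and 1438 in control on its brightest probe (-0.39) and 605 and 893 on a second (-0.57). The remaining Kcnab1 probe, at 144 with EMF and AuNPs, was detected in control alone at 200, at least 1.13-fold lower with EMF and AuNPs. All 3 Kcnab1 probes were therefore lower. The 2 measured ones lay under 1.5-fold, and the bound of the other sets no upper limit. Kcne4, a single-span subunit that restrains Kv currents, read 1260 with EMF and AuNPs and 1450 in control (-0.15). Kcne1l, another such subunit, read 314 and 360 (-0.15), and Kcnip3, a calcium sensor that also binds DNA, read 251 and 227 (0.40), in the same order.

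Calcium channel genes were nearly level on their brightest probes. Cacna1g and Cacna1h encode the low-voltage-activated (T-type) pores Cav3.1 and Cav3.2, and they were the 2 pores detected of 7. Cacna1g read 1381 with EMF and AuNPs and 1325 in control on its brightest probe (0.13). A dimmer Cacna1g probe read 242 and 197 (0.68, past 1.5-fold) and the other was not detected. Cacna1h read 495 with EMF and AuNPs and 579 in control (-0.16). Cacna2d1, an alpha2delta subunit that brings pores to the membrane, read 830 and 896 (-0.05). Cacna2d3, of the same type, read 212 with EMF and AuNPs and 203 in control (0.24), and Cacnb4, a cytoplasmic beta subunit, read 273 and 278 (0.10). All 5 brightest-probe differences were under 1 robust SD.

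In the CLC family, Clcn3 was higher on both of its detected probes. It encodes a chloride-proton exchanger of endosomes. The brightest probe read 684 with EMF and AuNPs and 499 in control (1.57-fold, 0.65, robust SD 0.28), and the second read 515 and 367 (1.69-fold, 0.76). Clcn3 was the only member past 1.5-fold on more than 1 probe. The other Clcn3 probe was detected on neither array, and without background correction the detected probes differed by 0.54 and 0.58, both slightly under 1.5-fold. Clcn7, the lysosomal exchanger, read 1421 with EMF and AuNPs and 1350 in control (0.15). Its beta subunit gene Ostm1 read 5935 with EMF and AuNPs and 5591 in control (0.12) and was named after its value was seen. Clcn4, an endosomal exchanger, read 188 with EMF and AuNPs and 230 in control (-0.42), close to the detection limit.

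Piezo2 had the largest decrease. It encodes a mechanically activated cation channel, the main touch sensor of sensory neurons and Merkel cells. Its probe read 647 with EMF and AuNPs and 1184 in control, 1.86-fold lower (-0.90), at 3.83 times the robust SD of 0.23. The difference stayed past 1.5-fold, with values from -0.92 to -0.79, when background correction or normalization was changed. The other settings tried changed the detection limit or averaged probes. They could not move it, since it rests on 1 probe that stayed detected.

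Few TRP channel genes were detected. Trpv2, a channel known from macrophages and also from sensory neurons, read 939 with EMF and AuNPs and 748 in control (0.45, at 1.82 times its robust SD). Trpv4, an osmotically sensitive channel, read 181 with EMF and AuNPs, just under detection, and 194 in control, at least 1.06-fold lower. Trpm4, a calcium-activated channel for monovalent cations, read 205 with EMF and AuNPs and 170 in control, where it was not detected, at least 1.31-fold higher. Trpc6, a channel opened by diacylglycerol, read 197 with EMF and AuNPs and 236 in control (-0.36). Trpv2 and Trpc6 were under 1.5-fold, and the bounds of Trpv4 and Trpm4 set no upper limit. With a detection p under 0.05, where Trpm4 counts as detected on both arrays, its difference was 0.68, past 1.5-fold. Trpc4ap, an adaptor protein gene, has 3 detected probes that do not go one way: 2319 with EMF and AuNPs and 2474 in control (-0.06), then 619 and 979 (-0.68), then 741 and 634 (0.36).

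**Figure D4:**
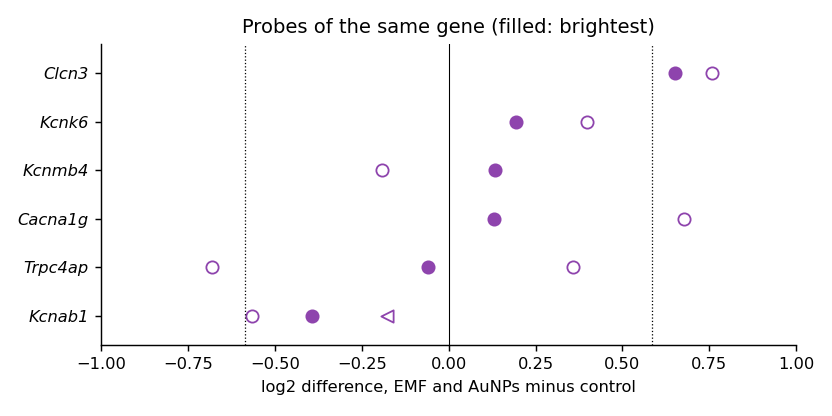
Log2 difference (EMF and AuNPs minus control) of each detected probe for the 6 channel genes with more than 1; filled symbols are the brightest probe, open circles the others, the triangle a bound, and dotted lines 1.5-fold. Probes share a sign for Clcn3, Kcnk6, Cacna1g and Kcnab1 and differ in sign for Kcnmb4 and Trpc4ap.

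Other transport genes were read from lists of related channels, partners and pumps. Of 17 detected members of the other TRP-superfamily, mechanosensitive and cation channel list, 0 were at least 1.5-fold higher (background 3.34%) and 3 lower (2.91%), and the median of the 16 measured on both arrays was -0.13. The 3 were Orai3, Mcu and Mcoln3. Orai3, a pore of store-operated calcium entry, read 965 with EMF and AuNPs and 1629 in control (-0.76). Mcu, the pore of the mitochondrial calcium uniporter, read 326 and 499 (-0.68) on its brightest probe and 243 and 285 (-0.21) on another. Mcoln3, an endosomal mucolipin channel, read 245 with EMF and AuNPs and 356 in control (-0.67). Without background correction Orai3 differed by -0.70, while Mcu (-0.51) and Mcoln3 (-0.44) were under 1.5-fold. Close relatives and partners of these genes, named after their values were seen, were not all lower. Orai1 was at 0.27 and Mcoln2 at 0.37. Stim1, the calcium sensor that opens Orai pores, was level at 0.03, and Mcoln1 was slightly lower at -0.11.

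The brightest members of that list were level. Tpcn1, an endolysosomal channel, read 5337 with EMF and AuNPs and 6012 in control (-0.15), and the proton channel gene Hvcn1 read 1276 and 1466 (-0.15). Tmem63a, a mechanosensitive channel gene, read 1285 with EMF and AuNPs and 1296 in control (0.06).

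Among chloride channels, partners and pumps, 1 gene passed 1.5-fold by its brightest probe. The background was 3.34% of detected genes higher and 2.91% lower, so lists this short would hold few such genes. None of 11 detected other chloride and anion channels passed 1.5-fold (median -0.06; Vdac3 -0.06, Ttyh3 -0.12 and Vdac2 0.01), nor did any of 19 channel partners and regulators (median 0.11; Calm3 0.03, Sgk1 0.20 and Calm2 0.11). The largest differences among the partners, named after their values were seen, were those of Fgf13 (-0.57) and Stac (0.54). Mtmr2, a phosphoinositide phosphatase gene also named afterwards, had a difference of -0.29 for the brightest probe, while its other detected probes gave -0.50 and -0.99. Of 11 detected sodium-potassium pump and cation-chloride cotransporter genes, 1 passed 1.5-fold lower and 0 higher, with a median of 0.06. It was Atp1b1, a beta subunit of the sodium-potassium pump, at 1283 with EMF and AuNPs and 2187 in control (-0.76, and -0.72 without background correction). Fxyd5, a pump regulator likewise named afterwards, had a difference of 0.57 for the brightest probe, while its other probes gave 0.49 and 0.60. In the same list Fxyd6 differed by 0.25, Atp1b3 by -0.22 and Slc12a2 by -0.10.

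Cell type markers were read beside these values, since several detected channels are also known from macrophages (Kcnn4, Kcnk6, Kcnk13, Trpv2 and Kcnj2). All 12 fibroblast markers on the array were detected, with a summed intensity of 210562 with EMF and AuNPs and 230371 in control. Of their differences 3 lay above 0 and 9 below, with a median of -0.11, and 1 passed 1.5-fold higher (Ddr2, 0.61). Among all 8199 genes detected on both arrays, 4578 lay above 0 and 3607 below, with a median of 0.03. Of 12 macrophage and leukocyte markers, 11 were detected, with sums of 155860 and 148243 in the same order, 8 of 10 measured differences above 0 and a median of 0.13. Of these Cd52 passed 1.5-fold higher (0.80). Itgam was the one not detected (178 with EMF and AuNPs, 131 in control), and Ptprc was detected in control alone. Of 12 neuronal markers, 2 were detected (Map2 and Syn1), while Tubb3, Snap25 and Th were not. Of 8 muscle markers, 5 were detected and 3 of them were at least 1.5-fold higher, against 3.34% of all detected genes (Mylpf 0.86, Tnnt1 0.64 and Myl1 0.60). The other detected ones, Des (-0.14) and Actc1 (0.35), were under 1.5-fold, and Myod1, Myog and Ckm were not detected. Without background correction Tnnt1 (0.50) and Myl1 (0.57) were under 1.5-fold and Mylpf (0.60) past it. Of 9 epithelial and endothelial markers 4 were detected with none past 1.5-fold. The part of these other cell types in the channel differences was not tested. In bulk RNA, fewer cells of a type and less RNA per cell cannot be told apart.

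Promoter windows were available for 26 of the 31 detected genes (43 windows), and 6 motifs were searched on both strands, overlaps allowed. The GC box GGGCGG was found in 46.5% of these windows (20 of 43) and in 35.7% of all 32851 windows. The TATA box TATAAA was found in 6.98% (3 of 43) and 13.6%, and the AP-1 motif TGANTCA in 4.65% (2 of 43) and 7.81%. The cyclic AMP response element TGACGTCA was found in 4.65% (2 of 43) and 1.79%. The letters GGANTTTCC, of the kappaB type, were found in 0 of the 43 windows and in 1.25% of all windows. The letters GAAANNGAA, of the interferon element type, were found in 6.98% (3 of 43) and 8.56%. Some genes have several of the 43 windows, and counts this small give no ground for calling a motif more or less frequent. In the Kcnj15 window shown above the capitals mark 1 TATA box match, on the minus strand, and in the Kcnk5 window 3 GC box matches. These are letter matches only.

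**Figure D5:**
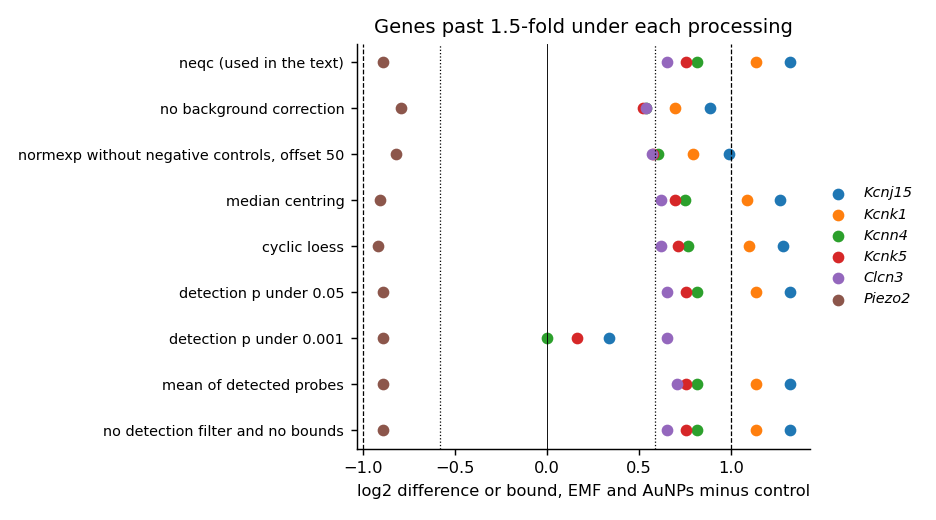
Log2 difference or bound (EMF and AuNPs minus control, horizontal axis) of the 6 genes past 1.5-fold under the processing used in the text and 8 alternatives (vertical axis); dashed lines mark 2-fold and dotted lines 1.5-fold. Piezo2 stays between -0.92 and -0.79, while Kcnj15 falls to 0.88 without background correction and to a bound of 0.34 with a detection p under 0.001, where Kcnk1 is not detected and has no point.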

How the data were processed

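Expression in mouse fibroblasts, control and EMF+AuNPs, was measured on 1 Illumina bead array each, from Trizol-extracted RNA labelled with biotin by the TotalPrep kit, per the labels' protocols. The software was GenomeStudio 2011.1, per the submitters' processing notes. As deposited by the authors, the main table holds a linear intensity per probe, not normalized between arrays, and beside it a detection p-value in steps of 1 in 798. Each detection p column belongs to the intensity column before it, since it never increased with that intensity. The authors deposited log2 values too, which equalled quantile normalized log2 intensities to within 4.99988e-07 (both columns have a median of 7.35) and served as the alternative without background correction. Arrays were tied to conditions by the sample descriptions heading the columns. All 25697 probes were processed with neqc (limma 3.58.1, R 4.3.3, offset 16). A gene was represented by its brightest probe detected on at least 1 array (8651 genes). Probes detected on 1 array have a bound, taken against the lowest detected value of the other array or the probe's own value there, whichever was higher. Calls are by size, at 2-fold and 1.5-fold. The number of arrays limits the precision. The robust SD is 1.4826 times the median absolute deviation in 20 brightness bins. Gene names came from the platform annotation (23978 probes with 1 gene, 1719 unnamed, 0 with several), and all 134 members matched RefSeq by Entrez number. No build is named for the array, so coordinates are given only for RefSeq windows. The steps were tested on simulated data. Changes were set there only in probes well above background, so that test does not cover dim members such as Kcnk1 and Kcnj15. The members, lists and motifs were chosen with earlier results of these data known. Every detected member is named, and of each list of related channels, partners and pumps the members past 1.5-fold and the 3 brightest. Figures were drawn with matplotlib 3.10.9.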

Additional observations from a re-analysis of the deposited data

How the results depend on the processing

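The 2-fold calls held under 5 of 8 alternatives, which is no measure of their stability. A detection p under 0.05, averaged probes and no filter could not move Kcnj15 and Kcnk1, each with 1 detected probe. Median centring and cyclic loess kept the background correction used in the text. Without background correction 0 channel genes were at least 2-fold higher and 2 at least 1.5-fold higher (Kcnj15 and Kcnk1), and with normexp, run without negative controls at offset 50 (neqc used 16), the counts were 0 and 3, where the Kcnj15 difference of 0.99 was just under 2-fold. These corrections pull dim differences toward 0 by construction, and the 2-fold counts of all genes fell too, to 24 higher and 16 lower without correction and to 27 and 21 with normexp. With a detection p under 0.001, 18 channel genes and 23 channel probes were detected, 0 genes were at least 2-fold higher and 1 (Clcn3) at least 1.5-fold higher, since fewer probes pass and Kcnj15 and Kcnk5 then have bounds of 0.34 and 0.16, Kcnn4 has none above 0 and Kcnk1 is not detected. With a detection p under 0.05, 45 channel genes were detected and 6 were at least 1.5-fold higher, the sixth being Trpm4. With no detection filter, all 134 genes entered and 8 were at least 1.5-fold higher and 3 lower. Under every setting run, 0 members were at least 2-fold lower, and Piezo2 was at least 1.5-fold lower. Detection limits and probe averaging could not move the Piezo2 value. The median of the channel genes lay between -0.05 and 0.07. No scaling moved the median of all genes by over 0.1. Of 235 values of single genes under alternatives, 229 moved by less than 1 robust SD, and no gene past 1.5-fold changed sign. Many of the 235 could not move, since detection limits and probe averaging leave a gene with 1 clearly detected probe unchanged. The 6 that moved further were Kcnj15 and Kcnk1 without background correction, Kcnj15, Kcnk5 and Kcnn4 with a detection p under 0.001, and Cacna1g with averaged probes.

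Among the other cation channels, 1 gene was at least 1.5-fold lower without background correction or with normexp, against 3, and 1 was higher with detection p under 0.05 or with no filter. In the pump list 1 was higher with median centring or no filter, and in the partner list 1 was lower when detected probes were averaged. The cation channel genes lost without background correction were Mcu (-0.51) and Mcoln3 (-0.44). The partner gene was Mtmr2, whose dimmer probes gave -0.50 and -0.99. The cause of the other changes was not tested. No paired analysis was possible because each condition has 1 array and the labels give no replicate numbers, so leaving out a replicate could not be run either. All deposited probes had a value, and signal near the negative controls limits the dim members most.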
